A study of Mus musculus with 24 samples.

Results

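The interleukin 1, 6, 18 and 33 axis was followed as 10 genes, chosen by gene symbol from the 56691 genes of the deposited count table, and all 10 symbols were found. They are the ligands Il1a, Il1b, Il18, Il33 and Il6, the antagonist Il1rn, the decoy receptor Il1r2, and the receptors Il1r1, Il1rl1 and Il6ra. RNA was sequenced in 6 groups of 4 libraries from mice with surgically induced endometriosis, the growth of endometrium-like tissue at ectopic sites, and from sham-operated mice. The groups were lesions at 3 months and at 1 month after endometriosis surgery, eutopic uterus of mice with endometriosis at the same times, and uterus of sham-operated mice at the same times. Surgery was done at 8 weeks of age, on a mixed C57BL/6 and SV129 background, and every sample was collected on pregnancy day 3.5. All groups carry the Rosa26mTmG/+ reporter allele. The labels give lesions as Pgrcre/+Rosa26mTmG/+ and both kinds of uterus as Rosa26mTmG/+, whereas the series text gives the mice with endometriosis as Pgrcre/+Rosa26mTmG/+. In that driver Cre is made from the progesterone receptor gene. If the labels hold, genotype and tissue cannot be told apart where lesions were compared with uterus. If the series text holds, genotype and surgery cannot be told apart where either was compared with sham uterus. Mice at 3 months were called subfertile if they had endometriosis and fertile if sham-operated, mice at 1 month were called fertile, and those at 3 months were also older. The labels tie no library to an animal, so the p-values measure only the spread between these libraries, which may be technical.

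Interleukin 1 alpha and beta are early cytokines of inflammation that bind the receptor encoded by Il1r1 and signal through MyD88 and IRAK proteins to NF-kB. Il1rn encodes a protein that occupies that receptor without signalling, and Il1r2 encodes a receptor that binds the ligand but lacks a signalling domain. Interleukin 1 beta and interleukin 18 are made as precursors that caspase 1 cuts in inflammasomes. Interleukin 33 is a nuclear protein of stromal, endothelial and epithelial cells that is released on damage and acts through ST2, the product of Il1rl1, on mast cells, type 2 innate lymphoid cells and regulatory T cells. Interleukin 6 binds the receptor encoded by Il6ra, which then engages the shared chain gp130 (Il6st) and activates STAT3. Macrophages are a main source of interleukin 1 in endometriotic lesions.

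The starts of the genes that differed most between lesions and uterus, and that of Il6 as the ligand that did not, are shown because NF-kB, AP-1, C/EBP and STAT factors act downstream of these cytokines. Each run is the 250 bases before a RefSeq transcript start in GRCm38.p6, with motif matches in capitals. The authors' counts are on mm39, so these coordinates serve only to place the genes.
Il1a, chr2:129309973-129310222, minus strand: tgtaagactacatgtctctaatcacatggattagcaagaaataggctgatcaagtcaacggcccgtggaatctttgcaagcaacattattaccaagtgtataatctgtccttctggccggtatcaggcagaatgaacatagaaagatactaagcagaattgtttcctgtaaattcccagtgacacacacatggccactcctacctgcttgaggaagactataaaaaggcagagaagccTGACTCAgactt
Il1b, chr2:129371140-129371389, minus strand: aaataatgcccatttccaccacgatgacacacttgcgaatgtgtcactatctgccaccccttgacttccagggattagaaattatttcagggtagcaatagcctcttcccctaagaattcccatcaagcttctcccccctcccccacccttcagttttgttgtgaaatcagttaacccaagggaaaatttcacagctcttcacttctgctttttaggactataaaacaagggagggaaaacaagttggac
Il1rn, chr2:24336610-24336859, plus strand: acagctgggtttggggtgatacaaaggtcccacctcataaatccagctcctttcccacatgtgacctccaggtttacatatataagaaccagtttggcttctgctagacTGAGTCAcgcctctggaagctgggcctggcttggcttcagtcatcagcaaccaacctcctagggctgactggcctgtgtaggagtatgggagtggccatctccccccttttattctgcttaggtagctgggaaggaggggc
Il33, chr19:29924863-29925112, plus strand: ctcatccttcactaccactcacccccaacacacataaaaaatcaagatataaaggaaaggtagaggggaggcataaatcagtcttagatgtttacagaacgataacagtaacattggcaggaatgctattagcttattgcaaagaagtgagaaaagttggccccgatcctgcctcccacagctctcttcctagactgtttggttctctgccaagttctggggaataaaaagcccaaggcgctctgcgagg
Il6, chr5:30012864-30013113, plus strand: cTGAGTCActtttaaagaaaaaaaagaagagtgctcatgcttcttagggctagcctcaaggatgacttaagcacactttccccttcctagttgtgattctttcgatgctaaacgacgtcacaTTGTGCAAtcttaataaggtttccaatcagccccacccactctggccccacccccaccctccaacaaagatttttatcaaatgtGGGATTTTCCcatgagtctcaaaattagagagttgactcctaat
The motifs were searched on both strands in the 15 windows of the 10 genes and in all 32851 RefSeq windows of that length. They were AP-1 (TGANTCA), C/EBP (TTGCNNAA), STAT (TTCNNNGAA), the steroid receptor element (ACANNNTGT) and the NF-kB consensus. The AP-1 letters stood in 3 of the 15 windows, those of Il1a, Il1rn and Il6, and in 6.75% of all windows. The NF-kB consensus was matched in 2 windows, from 44 to 35 bases before the start of Il6 and in the second start of Il1r1, and in 3.9% of all windows. The C/EBP letters were in 4 windows (9.56% of all), including that of Il6 at 128 to 121 bases before the start, and the STAT letters in 1 window, of Il1r2 (7.02% of all). The steroid receptor element was in 1 window, of Il1rl1 (5.84% of all). No motif was matched in the windows printed for Il1b and Il33. Some of the 15 windows overlap each other, the other motif matches do not overlap, and a match only describes the letters.

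Library totals ran from 4.51e+07 to 5.94e+07 counts. Libraries of a group were least alike among lesions at 3 months, with correlations of log2 CPM (counts scaled to library size) between 0.837 and 0.975 across genes, which are not independent replicates. Lesion libraries also differed in markers of other tissues. The summed CPM of 6 ovarian steroid cell markers was 22990 in lesion library 1 at 3 months, against 27.2 to 271 in the other 3. That of 5 skeletal muscle markers was 35366, 11048 and 5515 in lesion libraries 2, 3 and 4 at 3 months, against 96.7 to 163 in eutopic uterus at 3 months. That of 5 pancreas markers was 69278 in lesion library 2 at 1 month, against 0.0717 to 11.7 in the other 3. All these lesions are labelled as uterus. Their 8 uterine stroma markers summed to 2236, 12973, 8506 and 7294 CPM in lesions at 3 months and 9572 to 15576 CPM in lesions at 1 month, against 10049 to 21031 CPM in eutopic uterus at 3 months and 8661 to 15997 CPM at 1 month. The summed CPM of 7 epithelium markers was 122, 47.3, 917 and 672 in lesions at 3 months, against 922 to 1162 in eutopic uterus. At 1 month it was 787 to 926 in lesions and 831 to 1432 in eutopic uterus. For 5 adipocyte markers it was 59.6, 1638, 345 and 113 in lesions at 3 months, against 2.29 to 71.5 in eutopic uterus. At 1 month it was 149 to 797 in lesions, against 2.93 to 108 in eutopic uterus. The total counts of calls against eutopic uterus are also given without lesion library 1 at 3 months and without library 2 at 1 month. Most other values that rest on lesions include these libraries.

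Most of the axis was higher in lesions than in the uterus of mice with endometriosis. At 3 months 8 of the 10 genes rose and 0 fell (edgeR quasi-likelihood test, Benjamini-Hochberg adjusted p under 0.05 over 22249 genes), where 40.5% of all genes were called, 23.4% higher and 17.1% lower. At 1 month 7 rose and 0 fell, where 20.7% of all genes were called, 12% higher and 8.76% lower. The median log2 fold change of the 10 genes was 1.89 at 3 months and 1.53 at 1 month, beside 0.04 and -0.01 over all genes tested. Il1a passed the filter on low counts only through the lesions, so its place in these counts follows from being tested at all. Over the other 9 genes 7 rose at 3 months and 6 at 1 month, with medians of 1.74 and 1.51. In bulk tissue, fewer cells of a type and less RNA per cell cannot be told apart, and likewise more of either.

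**Figure D1:**
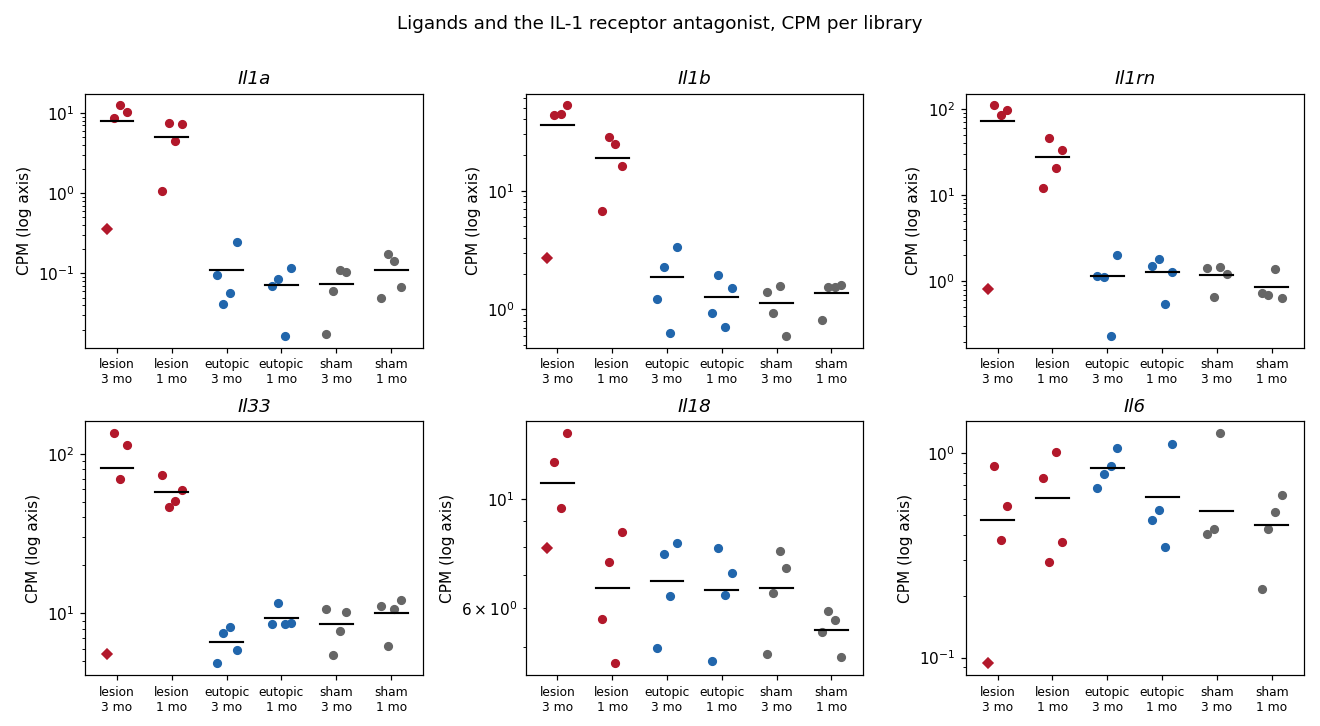
Level of each ligand and of Il1rn in CPM (log axis) by group, 1 point per library with the group mean as a bar; the diamond is lesion library 1 at 3 months, and sham library 4 at 3 months is not drawn for Il6 because its count was 0. Il1a, Il1b, Il1rn and Il33 stand well above both kinds of uterus in lesions, apart from the diamond, while Il6 does not.

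Il1a (ENSMUSG00000027399.2, chromosome 2 from 129299610 to 129309972 on the minus strand in GRCm38), the alpha ligand that also acts from dying cells, was close to undetected in uterus and present in lesions. At 3 months it had 0.356, 8.76, 12.5 and 10.2 CPM in lesion libraries 1 to 4, against 0.0964, 0.0415, 0.0579 and 0.249 CPM in eutopic uterus. At 1 month it had 1.07, 7.57, 4.43 and 7.25 CPM in lesions, against 0.0701, 0.0848, 0.0166 and 0.117 CPM in eutopic uterus. Every lesion library lay above every eutopic library at both times, although lesion library 1 at 3 months only just did so. The log2 fold change was 6.11 ± 0.81 (SE, with an edgeR adjusted p of 5.41e-05) at 3 months and 6.09 ± 0.85 (adjusted p = 0.000569) at 1 month. The eutopic values rest on 1 to 14 counts per library, so the size of the fold is less certain than its direction.

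Il1b (ENSMUSG00000027398.14, chromosome 2 from 129364570 to 129371139, minus strand), the secreted inflammasome-dependent ligand, was high in the same lesions as Il1a. At 3 months it had 2.73, 43.8, 44.3 and 52.6 CPM in lesions, against 1.23, 2.26, 0.637 and 3.34 CPM in eutopic uterus. In the 1-month libraries it had 6.79, 28.7, 24.7 and 16.1 CPM in lesions, against 0.929, 1.93, 0.712 and 1.53 CPM in eutopic uterus. The groups did not overlap at 1 month, and at 3 months lesion library 1 alone lay within the eutopic range. Fitted log2 fold changes were 4.26 ± 0.62 (edgeR adjusted p = 0.000125) at 3 months and 3.90 ± 0.62 (adjusted p = 0.00136) at 1 month.

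Il33 (ENSMUSG00000024810.17, chromosome 19 from 29925114 to 29960718, plus strand), the alarmin, had counts in every library of lesions and uterus. In the 3-month libraries it had 5.58, 136, 69.5 and 113 CPM in lesions, against 4.86, 7.54, 8.24 and 5.86 CPM in eutopic uterus. After 1 month it stood at 73.6, 46.4, 50.6 and 59.01 CPM in lesions, against 8.64, 11.6, 8.58 and 8.67 CPM in eutopic uterus. All 4 lesions were higher at 1 month, and 3 of 4 at 3 months. On the log2 scale the difference was 3.61 ± 0.50 (edgeR adjusted p = 6.35e-05) at 3 months and 2.62 ± 0.50 (adjusted p = 0.00297) at 1 month.

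Il18 (ENSMUSG00000039217.14, chromosome 9 from 50554827 to 50581840, plus strand), which drives interferon gamma in lymphocytes, differed far less. After 3 months it stood at 7.94, 11.9, 9.57 and 13.6 CPM in lesions, against 4.99, 7.72, 6.35 and 8.12 CPM in eutopic uterus. At 1 month it had 5.72, 7.44, 4.63 and 8.56 CPM in lesions, against 4.68, 7.94, 6.37 and 7.07 CPM in eutopic uterus, and the groups overlapped throughout. The log2 fold change was 0.66 ± 0.22 (edgeR adjusted p = 0.024) at 3 months and 0.02 ± 0.22 (adjusted p = 0.969) at 1 month. The call at 3 months was lost without lesion library 2 or 4 or without eutopic library 1 or 3, with adjusted p from 0.0565 to 0.0852.

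Il6 (ENSMUSG00000025746.12, chromosome 5 from 30013114 to 30019981, plus strand), the ligand of the STAT3 arm, was scarce everywhere and did not pass the test in any comparison. At 3 months it had 0.0936, 0.862, 0.377 and 0.550 CPM in lesions, against 0.675, 0.789, 0.869 and 1.07 CPM in eutopic uterus. In the 1-month libraries it had 0.752, 0.293, 1.01 and 0.368 CPM in lesions, against 0.473, 0.526, 0.348 and 1.11 CPM in eutopic uterus. The groups overlapped at both times. Fitted log2 fold changes were -0.86 ± 0.74 (edgeR adjusted p = 0.372) at 3 months and -0.01 ± 0.74 (adjusted p = 0.995) at 1 month, and these values do not show that the levels were alike. Sham library 4 at 3 months had 0 counts, which allows up to 3 counts or 0.0526 CPM.

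Il1rn (ENSMUSG00000026981.16, chromosome 2 from 24336853 to 24351494, plus strand), the receptor antagonist, had the second largest fold at both times. In the 3-month libraries it had 0.824, 110, 83.6 and 96.7 CPM in lesions, against 1.16, 1.12, 0.232 and 2.04 CPM in eutopic uterus. After 1 month it stood at 12.04, 45.7, 20.3 and 33.2 CPM in lesions, against 1.49, 1.83, 0.546 and 1.27 CPM in eutopic uterus. Lesion library 1 at 3 months lay within the eutopic range and every other lesion lay far above it. On the log2 scale the difference was 5.99 ± 0.77 (edgeR adjusted p = 8.07e-05) at 3 months and 4.43 ± 0.77 (adjusted p = 0.00257) at 1 month.

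Il1r2 (ENSMUSG00000026073.14, chromosome 1 from 40074079 to 40125231, plus strand), the decoy, was higher on average in lesions but did not pass the test against eutopic uterus. After 3 months it stood at 0.225, 4.73, 13.4 and 7.40 CPM in lesions, against 0.655, 3.74, 0.869 and 2.51 CPM in eutopic uterus. At 1 month it had 1.79, 4.80, 3.73 and 6.20 CPM in lesions, against 1.81, 1.87, 0.960 and 0.955 CPM in eutopic uterus. The log2 fold change was 1.73 ± 0.68 (edgeR adjusted p = 0.0547) at 3 months and 1.56 ± 0.69 (adjusted p = 0.115) at 1 month. Without lesion library 1 it passed at 3 months (log2 fold change 2.13, adjusted p = 0.002), as it did in a DESeq2 fit (adjusted p = 0.0221) and without eutopic library 2 (adjusted p = 0.0315). In a fit of the compared groups alone it passed at 1 month (adjusted p = 0.0176).

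**Figure D2:**
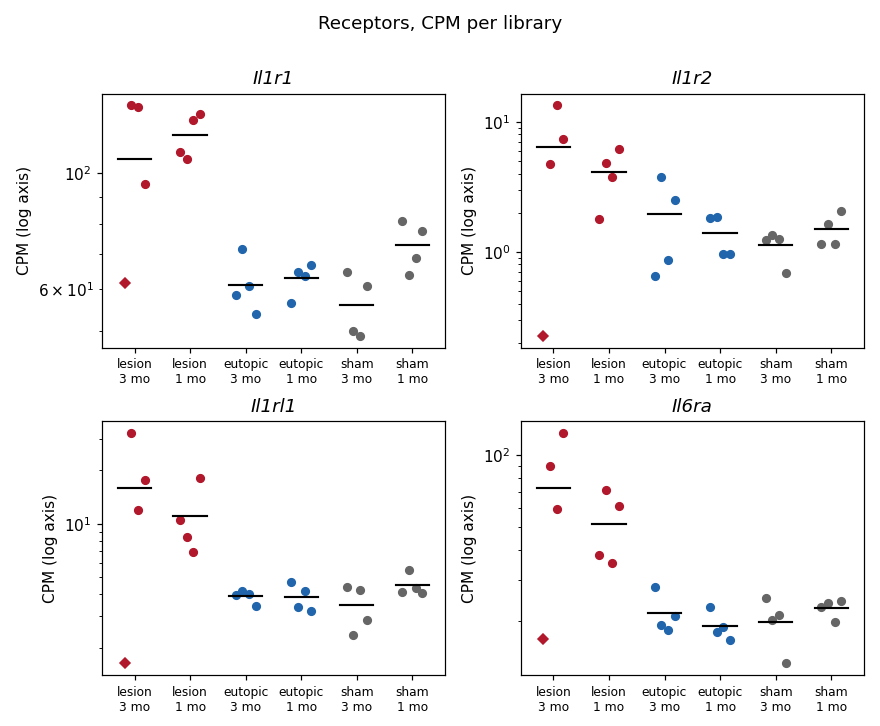
Level of the receptors in CPM (log axis) by group, 1 point per library with the group mean as a bar; the diamond is lesion library 1 at 3 months. The 4 lesions at 1 month lie above both kinds of uterus for Il1r1, Il1rl1 and Il6ra.

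Il1r1 (ENSMUSG00000026072.13, chromosome 1 from 40225080 to 40317257, plus strand), the signalling receptor, was abundant in every group. At 3 months it had 61.7, 134, 133 and 95.2 CPM in lesions, against 58.5, 71.6, 60.8 and 53.9 CPM in eutopic uterus. In the 1-month libraries it had 109, 106, 126 and 129 CPM in lesions, against 56.6, 64.8, 63.8 and 66.9 CPM in eutopic uterus. The groups were apart at 1 month, with close agreement among the 4 lesions, and overlapped at 3 months through lesion library 1. Fitted log2 fold changes were 0.79 ± 0.17 (edgeR adjusted p = 0.0014) at 3 months and 0.90 ± 0.17 (adjusted p = 0.00248) at 1 month.

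Il1rl1 (ENSMUSG00000026069.16, chromosome 1 from 40429570 to 40465415, plus strand), which encodes both the membrane and the soluble form of ST2, rose less than its ligand. In the 3-month libraries it had 1.63, 32.7, 11.9 and 17.6 CPM in lesions, against 3.97, 4.19, 4.03 and 3.43 CPM in eutopic uterus. After 1 month it stood at 10.5, 8.42, 6.92 and 18.2 CPM in lesions, against 4.72, 3.41, 4.16 and 3.22 CPM in eutopic uterus. The groups were apart at 1 month, while lesion library 1 at 3 months lay below all eutopic libraries. On the log2 scale the difference was 2.03 ± 0.49 (edgeR adjusted p = 0.00342) at 3 months and 1.51 ± 0.49 (adjusted p = 0.0371) at 1 month. The call at 1 month was lost without lesion library 1, 2 or 4 or eutopic library 2, 3 or 4 (adjusted p from 0.0535 to 0.143) and with no filter on low counts (adjusted p = 0.0577).

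Il6ra (ENSMUSG00000027947.12, chromosome 3 from 89864059 to 89913196, minus strand), the interleukin 6 receptor of leukocytes and hepatocytes, rose although its ligand did not pass the test. After 3 months it stood at 16.9, 90.0, 59.3 and 125 CPM in lesions, against 28.0, 19.4, 18.4 and 21.1 CPM in eutopic uterus. At 1 month it had 38.2, 71.5, 35.1 and 61.1 CPM in lesions, against 22.9, 18.1, 19.0 and 16.7 CPM in eutopic uterus. All lesions were higher at 1 month, and 3 of 4 at 3 months. The log2 fold change was 1.74 ± 0.36 (edgeR adjusted p = 0.00113) at 3 months and 1.42 ± 0.36 (adjusted p = 0.0118) at 1 month.

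**Figure D3:**
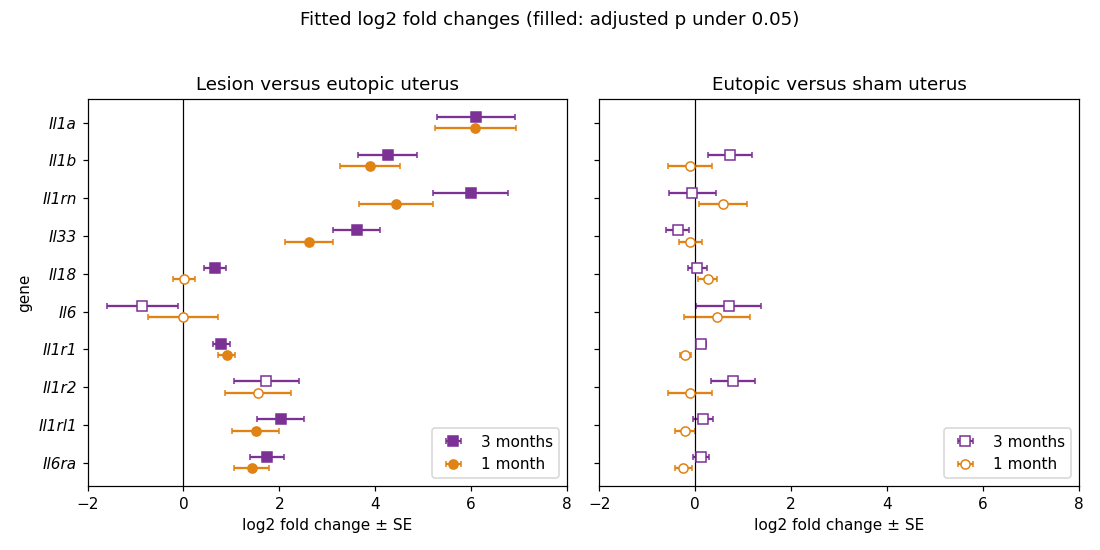
Fitted log2 fold changes with their SE for the 10 genes in lesions against eutopic uterus and in eutopic against sham uterus, at 3 months and 1 month (4 libraries a group); filled symbols passed an adjusted p of 0.05, and Il1a was not tested among the uterine libraries. The left panel holds 8 filled symbols at 3 months and 7 at 1 month, and the right panel none.

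Lesion library 1 at 3 months stood at or below the highest eutopic library for 9 of the 10 genes, all but Il1a. Without it, every remaining lesion lay above every eutopic library for 9 of the 10, all but Il6. That library was set aside for these ranges after seeing the data, so the separation follows in part from the choice. How many of all genes separated in this way was not counted, so 9 of the 10 cannot be called unusual. In the fit without it 9 genes of the axis passed, where 10862 genes were called in all. With every library 9013 of 22249 genes were called. Without lesion libraries 1 and 2 together, a choice also made after seeing the data, 9 passed as well, where 9452 genes were called in all. The calls at 3 months draw on a spread estimated over all 24 libraries. With only the 8 compared libraries in the fit, 4 of the 10 genes passed, where 3267 genes were called in all. They were Il1a (edgeR adjusted p = 0.0153), Il1b (0.0234), Il1rn (0.0253) and Il33 (0.0257). With a replicate block added to that fit, 0 of the 10 genes passed, where 608 genes were called in all. Replicate numbers were not shown to pair samples by any label. Yet of 8 lesion and eutopic libraries, 6 at 3 months and 8 at 1 month correlated best with their own number. At 1 month 6 genes passed without lesion library 2, the one with pancreas transcripts, Il1rl1 being lost. In that fit 2707 genes were called in all.

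Markers of leukocytes and of uterine tissue also differed between lesions and eutopic uterus. The marker counts below stand beside 23.4% higher and 17.1% lower among all genes at 3 months, and 12% and 8.76% at 1 month. All 8 macrophage markers rose at both times, and their summed CPM was 226, 8833, 3688 and 7886 in lesions at 3 months and 1505, 4104, 1387 and 3537 in lesions at 1 month, against 319 to 577 in eutopic uterus at 3 months and 367 to 498 at 1 month. Lesion library 1 at 3 months, low for the cytokines, thus had the lowest macrophage sum of these 16 libraries. All 6 T cell and all 4 B cell markers rose at both times. Of 7 neutrophil markers, 4 rose and 1 fell at 3 months and 5 rose at 1 month, with sums of 5.48 to 168 CPM in lesions at 3 months and 32 to 320 CPM at 1 month, against 9.50 to 41.2 CPM in eutopic uterus at 3 months and 8.10 to 35.0 CPM at 1 month. Of 7 mast cell markers, 0 rose at either time and 1 fell at 1 month, with sums of 71.4 to 210 CPM in lesions at 3 months and 40.6 to 106 CPM at 1 month, against 56.3 to 94.4 CPM in eutopic uterus at 3 months and 66.4 to 92.8 CPM at 1 month. Of 5 tested markers of type 2 innate lymphoid cells, 3 rose and 1 fell at 3 months and 2 rose at 1 month. Their summed CPM was 182 to 237 in lesions at 3 months and 222 to 483 in lesions at 1 month, against 230.3 to 286 in eutopic uterus at 3 months and 222 to 441 at 1 month. Of 8 uterine stroma markers 7 fell at 3 months and 0 passed at 1 month, and of 5 smooth muscle markers 4 fell at 3 months and 0 passed at 1 month. Of 5 endothelium markers 0 rose and 2 fell at each time. Of 7 epithelium markers 0 rose at either time and 1 fell at 3 months. In every group no macrophage or mast cell marker was at 0 in all 4 libraries, and of the neutrophil markers Ngp was at 0 in eutopic uterus at 1 month. The part of cell content in the fold changes was not tested.

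**Figure D4:**
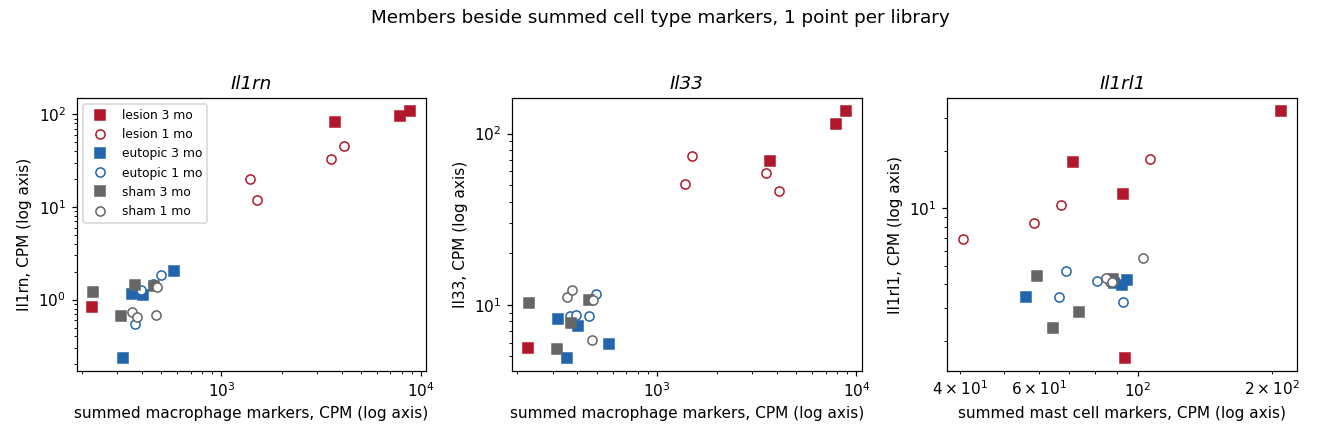
Il1rn and Il33 against the summed CPM of 8 macrophage markers, and Il1rl1 against that of 7 mast cell markers, 1 point per library on log axes, squares for 3 months and open circles for 1 month. Lesions with high macrophage sums (1387 to 8833 CPM) have high Il1rn and Il33, and lesion library 1 at 3 months (226 CPM) lies among the uteri. Among lesions at 1 month Il33 did not follow the sum. It was highest in library 1 (73.6 CPM, sum 1505 CPM), while library 2 had the highest sum (4104 CPM). Lesions with raised Il1rl1 have mast cell sums of 40.6 to 210 CPM, against 56.3 to 103 CPM in the uteri. Library 2 at 3 months (210 CPM) and library 4 at 1 month (106 CPM) had the highest sum and the highest Il1rl1 of the lesions at their time. The order was otherwise not shared at 3 months. Library 1 had the next highest sum (93.8 CPM) and the lowest Il1rl1 (1.63 CPM). Library 4 at 3 months had the lowest sum (71.4 CPM) but not the lowest Il1rl1.

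Within the axis the balance of ligand, antagonist and receptor was described as log2 ratios of CPM in each library, with 0.05 CPM added and no test. The ratio of Il1rl1 to Il33 averaged -2.26 ± 0.43 (SD, n = 4) in lesions at 3 months and -2.45 ± 0.54 in lesions at 1 month, against -0.73 ± 0.31 in eutopic uterus at 3 months and -1.27 ± 0.40 at 1 month. At 3 months the lesion ratios, from -2.68 to -1.75, lay below all eutopic ratios, from -1.02 to -0.29, and this held for lesion library 1 too. In sham uterus at 3 months they ran from -1.82 to -0.86, which overlaps the lesion range. At 1 month the lesion range, -2.86 to -1.69, overlapped that of eutopic uterus, -1.75 to -0.87. The ratio of Il1rn to Il1b was -1.67, 1.33, 0.91 and 0.88 in lesions at 3 months, against -0.09, -0.98, -1.29 and -0.70 in eutopic uterus, so 3 of 4 lesions stood above and library 1 below. In sham uterus at 3 months it ran from -0.45 to 0.96, which reaches above 2 of those 3 lesions. At 1 month it ran from -0.28 to 1.04 in lesions and from -0.35 to 0.65 in eutopic uterus. The ratio of Il6ra to Il6 ran from 6.63 to 7.70 in lesions at 3 months, against 4.24 to 5.28 in eutopic uterus, with no overlap, and 4.02 to 8.06 in sham uterus, which spans the lesion range. At 1 month it ran from 5.05 to 7.70 in lesions and from 3.86 to 5.58 in eutopic uterus, with overlap. The ratio of decoy to signalling receptor, Il1r2 to Il1r1, ran from -7.81 to -3.31 in lesions at 3 months, against -6.37 to -4.24 in eutopic uterus.

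**Figure D5:**
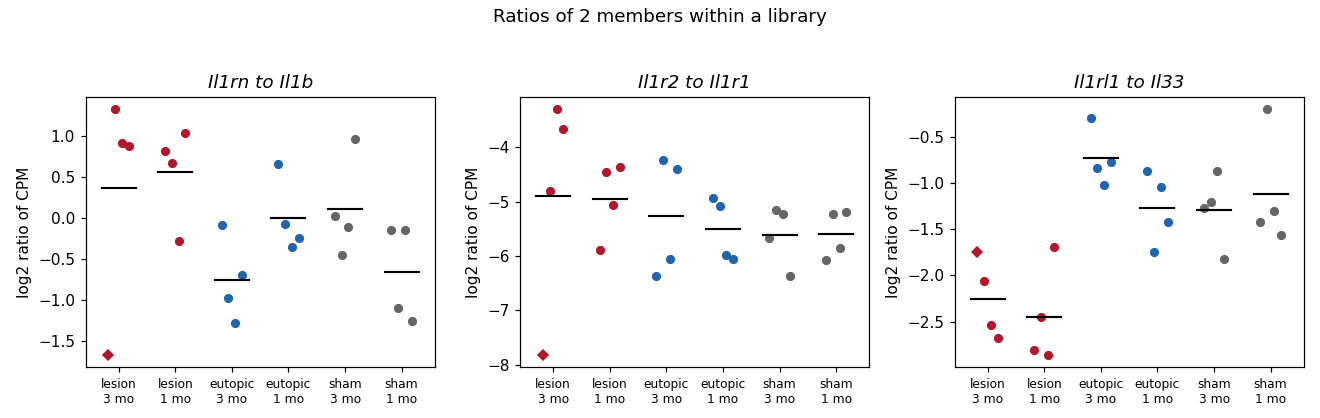
Log2 ratios of CPM of Il1rn to Il1b, Il1r2 to Il1r1 and Il1rl1 to Il33 in each library by group, with group means as bars and lesion library 1 at 3 months as a diamond. The Il1rl1 to Il33 ratio is lower in all 4 lesions at 3 months (-2.68 to -1.75) than in eutopic uterus at 3 months (-1.02 to -0.29), and overlaps sham uterus at 3 months (-1.82 to -0.86).

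Per length (CPM per kilobase of GENCODE vM21 exons, an annotation that is not the authors'), the order of levels also differed. In lesions at 3 months Il33 led with 28.1 ± 19.9 (SD, n = 4), followed by Il1b with 18.8 ± 11.8, Il1r1 with 16.7 ± 5.46, Il1rn with 13.1 ± 8.88 and Il18 with 10.4 ± 2.42, neighbours that did not differ beyond their spread. In lesions at 1 month Il33 had 19.9 ± 4.16 and Il1r1 18.5 ± 1.83, again within their spread, followed by Il1b with 9.998 ± 5.09. In eutopic uterus Il1r1 led with 9.62 ± 1.18 at 3 months and 9.90 ± 0.71 at 1 month, and Il18 came next with 6.59 ± 1.38 at 3 months and 6.32 ± 1.34 at 1 month. Il33 was at 2.30 ± 0.54 in eutopic uterus at 3 months and 3.25 ± 0.51 at 1 month. Il6 was last in lesions, with 0.194 ± 0.132 at 3 months and 0.250 ± 0.139 at 1 month, and Il1a was last in eutopic uterus, with 0.0563 ± 0.0479 at 3 months and 0.0366 ± 0.0213 at 1 month. The order in sham uterus was headed by the same 2 genes.

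The uterus of mice with endometriosis did not differ detectably from sham uterus in this axis. Of the 9 genes tested, 0 passed at 3 months (smallest edgeR adjusted p = 0.992), where 0% of 21208 genes were called, and 0 passed at 1 month (0.876), where 0.00943% were called. At an unadjusted p under 0.05 there were 0 of the 9 at either time, and DESeq2 called 0. At 3 months the largest log2 fold changes were those of Il1r2, 0.78 ± 0.46, and Il1b, 0.73 ± 0.46, and Il33 had -0.37 ± 0.24. At 1 month the largest was that of Il1rn, 0.58 ± 0.49, and Il1r1 had -0.21 ± 0.11. Il1a, at 1 to 14 counts in every eutopic library and 1 to 10 in every sham library, was not tested there. With all 24 libraries in the fit its log2 fold change was 0.59 at 3 months and -0.58 at 1 month (edgeR adjusted p = 1 at both).

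Against sham uterus the lesions gave nearly the same picture, and the lesion libraries are shared with the comparison above. At 3 months 9 of 10 genes rose, where 41.6% of all genes were called, 23.2% higher and 18.4% lower, and at 1 month 6 rose, where 15% were called, 9.46% higher and 5.53% lower. Il1r2 passed at 3 months, with 0.225 to 13.4 CPM in lesions against 0.683 to 1.35 CPM in sham uterus and a log2 fold change of 2.51 ± 0.69 (edgeR adjusted p = 0.00901), a call lost in a fit of the compared groups alone (0.103). Il18 had 7.94 to 13.6 CPM in lesions at 3 months against 4.85 to 7.84 CPM in sham uterus, with no overlap and a log2 fold change of 0.70 ± 0.22 (adjusted p = 0.0167). That call was lost without lesion library 4 (0.0619), without sham library 1 (0.0576) and in a fit of the compared groups alone (0.099). Il1rl1 at 1 month had 6.92 to 18.2 CPM in lesions against 4.09 to 5.47 CPM in sham uterus, with no overlap, but did not pass (log2 fold change 1.29 ± 0.49, adjusted p = 0.0829). It did pass in DESeq2 (0.0436) and in a fit of the compared groups alone (0.0116). Il6ra at 1 month passed with a log2 fold change of 1.18 ± 0.36 (adjusted p = 0.0363), a call lost in 6 of the 8 fits that leave out 1 library and with no filter on low counts. With only the compared libraries in the fit, 4 genes passed at 3 months, where 2600 genes were called in all.

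Between times, lesions at 3 months and at 1 month differed in Il18 alone, where 10.9% of all genes were called, 6.52% higher. Its mean was 10.7 ± 2.498 CPM in lesions at 3 months and 6.59 ± 1.75 CPM in lesions at 1 month (SD, n = 4 each), with overlapping ranges and a log2 fold change of 0.71 ± 0.22 (edgeR adjusted p = 0.048). That call was lost in a fit of the compared groups alone (adjusted p = 0.33), with no filter on low counts (0.086), without lesion library 1, 2 or 3 at 1 month or 2 or 4 at 3 months (0.054 to 0.174), and without libraries 1 and 2 at 3 months (0.0643). Without lesion library 1 at 3 months, 4 genes passed, where 3850 genes were called in all. On the log2 scale they were Il1rn at 1.80 (edgeR adjusted p = 0.0133), Il6ra at 0.82 (0.0296), Il33 at 0.88 (0.0235) and Il18 at 0.82 (0.0174). The lesion-to-eutopic difference changed with time in 0 of the 10 genes (smallest edgeR adjusted p = 0.353), where 0.769% of all genes were called, 0.454% higher, and 0 passed unadjusted or in DESeq2. Without lesion library 1 at 3 months, Il33 passed that test, with a change of 1.396 (edgeR adjusted p = 0.0338), where 901 genes were called in all. In eutopic uterus Il33 had 4.86 to 8.24 CPM at 3 months and 8.58 to 11.6 CPM at 1 month, with no overlap, but did not pass (log2 fold change -0.50, adjusted p = 1). No gene of the axis passed between times in eutopic uterus (0 of 9, with 0 at an unadjusted p under 0.05). None passed in sham uterus (0 of 9, with 1 at an unadjusted p under 0.05), and none in DESeq2 in either uterus. There edgeR called 0.00943% of all genes in eutopic and 0% in sham uterus. The eutopic-to-sham difference changed with time in 0 of 9 genes (smallest adjusted p = 0.979), with 0 at an unadjusted p under 0.05 and 0 in DESeq2, where 0.00943% were called.

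Around the axis, 81 genes in 7 lists were counted, of which 77 were tested with lesions. At 3 months 52 were higher and 6 lower in lesions than in eutopic uterus, with a median log2 fold change of 1.14 beside 0.04 over all genes. At 1 month 38 were higher and 1 lower, with a median of 0.83 beside -0.01. Of the 77, 6 passed the filter on low counts only with the lesions (Ccl20, Cxcl2, Il36a, Il36g, Il36rn and Mmp13), so their calls follow in part from being tested at all. Over the other 71, 48 were higher and 6 lower at 3 months (median 1.05), and 33 higher and 1 lower at 1 month (median 0.75). These counts stand beside 23.4% higher and 17.1% lower among all genes at 3 months, and 12% higher and 8.76% lower at 1 month. Without lesion library 1 at 3 months 66 of the list genes were called, beside 10862 among all genes. Without lesion library 2 at 1 month 30 were called, beside 2707 among all genes. In a fit of the compared groups alone, 23 were called at 3 months and 50 at 1 month. That fit called 3267 genes in all at 3 months and 6744 at 1 month. Between eutopic and sham uterus 0 of 71 passed at either time in edgeR or DESeq2, with 4 at 3 months and 8 at 1 month at an unadjusted p under 0.05.

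Among the other ligands and binding proteins, 3 of 5 tested rose at each time, beside 23.4% of all genes at 3 months and 12% at 1 month. They were the same 3, the epithelial cytokines Il36g and Il36a, which were tested only through the lesions, and the interleukin 18 inhibitor Il18bp. Il36g had 0.0187, 15.5, 13.5 and 6.74 CPM in lesions at 3 months, against 0.0385, 0.0415, 0.0579 and 0.267 CPM in eutopic uterus (log2 fold change 6.41 ± 1.06, edgeR adjusted p = 0.000343). In the 1-month libraries it had 1.45, 6.42, 5.24 and 6.93 CPM in lesions, against 0.0526, 0.0678, 0 and 0.0168 CPM in eutopic uterus (7.11 ± 1.28, adjusted p = 0.00155). Il36a was uneven in lesions at 3 months, at 0, 0.0233, 9.08 and 3.85 CPM, and its call there (adjusted p = 0.0495) was lost with no filter on low counts (0.0684) and in 5 of the 8 fits that leave out 1 library. Il18bp had a log2 fold change of 2.66 ± 0.55 at 3 months, a call lost in a fit of the compared groups alone (edgeR adjusted p = 0.0546), and 2.24 ± 0.55 at 1 month.

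Among 6 other receptor chains, 2 rose at each time, beside 23.4% of all genes at 3 months and 12% at 1 month. They were both chains of the interleukin 18 receptor. Il18r1 was at 62.2 ± 46.3 CPM in lesions at 3 months, against 9.90 ± 1.54 CPM in eutopic uterus (SD, n = 4 each). The 1-month lesions averaged 43.0 ± 19.1 CPM, against 8.001 ± 1.04 CPM for eutopic uterus. Il18rap rose by 2.95 ± 0.60 at 3 months and by 2.51 ± 0.60 at 1 month on the log2 scale. Il6st, the gp130 chain through which interleukin 6 signals, fell at 3 months to 378, 692, 623 and 747 CPM in lesions, against 1426, 1005, 1085 and 693 CPM in eutopic uterus. The ranges overlapped, and its log2 fold change was -0.79 ± 0.20 (edgeR adjusted p = 0.00351). In a fit of the compared groups alone 0 of the 6 passed at 3 months, with Il18rap at an adjusted p of 0.059, Il18r1 at 0.0638 and Il6st at 0.103.

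Of 9 genes of precursor processing and shedding, 6 rose at 3 months and 4 at 1 month, beside 23.4% and 12% of all genes. A fit of the compared groups alone called 3 at 3 months and 8 at 1 month, beside 3267 and 6744 among all genes. The inflammasome sensors led, with Nlrp3 at 3.56 ± 0.51 and 2.69 ± 0.51, Nlrc4 at 3.09 ± 0.52 and 2.17 ± 0.52, and Aim2 at 2.36 ± 0.56 and 1.72 ± 0.56 on the log2 scale at 3 months and 1 month in that order. The call of Aim2 at 1 month was lost in 6 of the 8 fits that leave out 1 library (edgeR adjusted p from 0.0759 to 0.116) and with no filter on low counts (0.061), and that at 3 months in a fit of the compared groups alone (0.0892). Nlrp3 had 1.74, 19.5, 13.6 and 32.3 CPM in lesions at 3 months, against 0.955 to 2.29 CPM in eutopic uterus. Of 25 signalling genes, 16 rose and 3 fell at 3 months, beside 23.4% and 17.1% of all genes, and 8 rose at 1 month, beside 12%. A fit of the compared groups alone called 6 at 3 months. Tnfaip3, which encodes the NF-kB inhibitor A20, rose by 2.95 ± 0.47 and 2.33 ± 0.47, and Relb by 1.91 ± 0.32 and 1.48 ± 0.32 at the same times.

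Of 14 genes that interleukin 1 and NF-kB are known to induce, 12 rose at 3 months and 11 at 1 month, beside 23.4% and 12% of all genes. They included Cxcl2 and Mmp13 at both times and Ccl20 at 1 month, which were tested only through the lesions. A fit of the compared groups alone called 6 at 3 months. The neutrophil chemokine Cxcl2 had 0.0187, 32.1, 24.6 and 19.96 CPM in lesions at 3 months, against 0, 0.0208, 0 and 0.231 CPM in eutopic uterus (log2 fold change 8.15 ± 1.25, edgeR adjusted p = 0.00016). After 1 month it stood at 6.06, 15.3, 13.2 and 6.25 CPM in lesions, against 0.0526, 0.0170, 0.0662 and 0.0503 CPM in eutopic uterus (7.70 ± 1.30, adjusted p = 0.00145). The collagenase Mmp13 and the acute phase protein Saa3 rose by 7.64 ± 0.80 and 5.90 ± 0.71 at 3 months, and the siderophore-binding Lcn2 by 5.71 ± 1.21 at 1 month. Ccl20 had 72 counts over the 4 lesions at 1 month and 1 over the eutopic libraries.

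Of 10 interleukin 6 and STAT3 response genes, 7 rose and 1 fell at 3 months, beside 23.4% and 17.1% of all genes, and 4 rose at 1 month, beside 12%. At 3 months 2 were called in a fit of the compared groups alone and 5 without lesion library 4. At 1 month 8 were called in a fit of the compared groups alone. That fit called 3267 genes in all at 3 months and 6744 at 1 month. The kinase gene Pim1 rose by 1.86 ± 0.39 at 3 months and 1.63 ± 0.39 at 1 month, and the protease inhibitor Timp1 by 1.82 ± 0.24 and 1.08 ± 0.24. Timp1 had 33.6, 50.1, 21.1 and 49.5 CPM in lesions at 3 months, against 8.76 to 14.2 CPM in eutopic uterus, so here lesion library 1 was also higher. Osmr, the oncostatin M receptor, rose by 1.23 ± 0.30 at 1 month, and haptoglobin (Hp) by 2.14 ± 0.66 at 3 months. The call of Pim1 at 3 months was lost in a fit of the compared groups alone (edgeR adjusted p = 0.0603), as was that of Hp (0.101). The call of Hp was also lost without lesion library 2 at 3 months (edgeR adjusted p = 0.154) and without eutopic library 2 or 4 (0.0525 and 0.0552).

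Of 8 tested type 2 and interleukin 33 response genes, 6 rose and 1 fell at each time. Among all genes 23.4% rose and 17.1% fell at 3 months, and 12% rose and 8.76% fell at 1 month. The chemokine Ccl17 had 2.81, 5.08, 6.02 and 8.37 CPM in lesions at 3 months, against 0.0771, 0.0415, 0.116 and 0.409 CPM in eutopic uterus (log2 fold change 5.07 ± 0.57, edgeR adjusted p = 1.16e-05), with no overlap even for lesion library 1. At 1 month its log2 fold change was 4.14 ± 0.55 (adjusted p = 0.000442). Arg1, the arginase of alternatively activated macrophages, had 0.955, 21.5, 494 and 36.4 CPM in lesions at 3 months, against 0.925 to 2.22 CPM in eutopic uterus, so that 1 library made most of its mean. Retnla rose by 4.36 ± 0.89 at 3 months and 3.51 ± 0.88 at 1 month, and Chil3, a macrophage lectin, by 4.43 ± 1.02 at 1 month, where lesion library 2 had 16.2 CPM and the other 3 had 1.10 to 1.54 CPM. Without that library Chil3 had a log2 fold change of 2.44 and did not pass (edgeR adjusted p = 0.0906). Retnla did not pass at 1 month without lesion library 4 (0.0579) or eutopic library 2 or 4 (0.0505 and 0.052). Of the list, 3 genes passed at 1 month without lesion library 2 or 4 or eutopic library 2 or 4, and 4 without eutopic library 3, against 7 with all libraries. Several of these genes are also macrophage products, and the macrophage sums given above were also higher in lesions other than library 1 at 3 months. Among lesions at 3 months Arg1 was highest in library 3, with a sum of 3688 CPM. It was lower in libraries 2 and 4, with sums of 8833 and 7886 CPM. Retnla had 1.31, 141, 21.5 and 12.8 CPM in libraries 1 to 4. It was thus highest in library 2, with the highest sum, and lowest in library 1, with the lowest (226 CPM). The part of cell content was not tested.

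The genes most like each member over the 24 libraries were found among 12931 protein-coding genes, as Pearson's r of log2 CPM, with r after removal of group means in brackets. The 24 points include 8 lesions that lie apart from 16 uteri and share library-wide differences, so these values are descriptions. Il1a was most like Zc3h12a at 0.975 (0.896), which encodes an RNase that degrades cytokine mRNAs. Il1b was most like Clec4n, Nlrp3 and Fcgr2b, each at 0.960, Clec4n and Fcgr2b being myeloid receptors. Il1rn was most like Hk3 at 0.975 (0.930) and Il6ra like Plekho2 at 0.978 (0.952). Il33 was most like Podn, a matrix proteoglycan, at 0.967 (0.911), and Il1r1 like Mgp, another matrix protein, at 0.906 (0.685). Spib was nearly as close to both, at 0.961 (0.901) for Il33 and 0.901 (0.68) for Il1r1. Il1rl1 was most like the complement gene C4b at 0.961 (0.942), with the macrophage receptor Mrc1 next at 0.955 (0.933), and Il1r2 like Otulinl at 0.919 (0.891). Il18 and Il6 had no gene as close, with Atp6v0b at 0.898 (0.841) and Ctsd at 0.807 (0.807).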

How the data were processed

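The authors deposited read counts per gene, as whole numbers with 1 column per library and none left unused. Per the submitters' processing notes, bcl2fastq 1.9.0, STAR 2.7.9a, genome build mm39 and edgeR were used. How reads were counted, and whether by strand, is not given in the sources used here, which leaves overlapping and antisense genes uncertain. The group means were fitted with edgeR 4.0.16 in R 4.3.3, using filterByExpr, TMM factors and quasi-likelihood F-tests. Comparisons with lesions used all 24 libraries (22249 genes tested) and those among uteri the 16 uterine libraries (21208 genes). Calls needed an adjusted p under 0.05 (Benjamini-Hochberg over all genes tested). CPM used TMM factors, and SE is a Wald error with the moderated dispersion. Totals of 4.51e+07 to 5.94e+07 counts limit precision for scarce genes, and floors (3 counts) cover counting error only.

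The 10 genes, the 7 pathway lists and the 16 marker lists were chosen with earlier results of these data known. All 10 genes were named in every comparison. From each pathway list up to 3 called genes with the largest fold in a lesion comparison were named (1 is not reported here), and for each member the 3 genes most like it were computed. Promoter windows came from RefSeq (GRCm38.p6), matched by symbol. The procedure was tested on simulated counts. Alternatives were DESeq2 1.42.0, its size factors within edgeR, no filter, other library sets, a replicate block and each library left out. Leaving out lesion libraries 1 and 2 at 3 months together was added after the data were seen, as were the ranges without lesion library 1 at 3 months.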

Additional observations from a re-analysis of the deposited data

Results flagged for a closer look

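Among 60 sets of 1 gene in 1 group of 4 libraries, 7 had a library far from the other 3 by Dixon's gap test on log2 CPM, where chance gives about 1 in 20. Lesion library 1 at 3 months was the far low value for 3 genes, with 0.356 CPM of Il1a, 2.73 CPM of Il1b and 0.824 CPM of Il1rn. That library had 226 CPM of summed macrophage markers and 22990 CPM of ovarian steroid cell markers, and the part of these in its low values was not tested. In sham uterus at 1 month, Il1b was far low in library 1 at 0.815 CPM and Il1rn far high in library 3 at 1.38 CPM. In sham uterus at 3 months, Il1r2 was far low in library 4 at 0.683 CPM. In eutopic uterus at 1 month, Il33 was far high in library 2 at 11.6 CPM.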

How the results depend on the processing

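No member called against eutopic or sham uterus changed direction under any alternative run. At 3 months the calls depended on which libraries set the spread. In a fit of the compared groups alone, 4 members and 3267 genes were called against eutopic uterus, and 4 members and 2600 genes against sham uterus, with the spread taken from fewer libraries. For lesions between times that fit called 0 members and 0 genes, no filter on low counts 0 members, and leaving out lesion libraries 1 and 2 at 3 months 0 members and 1573 genes. The fit of the compared groups alone also called 2 genes between eutopic and sham uterus at 3 months, 5889 between lesions and sham uterus at 1 month, 6 in eutopic uterus over time and 10 for the change of the lesion-to-eutopic difference. DESeq2 called 11 genes (3 months) and 14 genes (1 month) between eutopic and sham uterus, 14 in eutopic and 159 in sham uterus over time, 8 for the change of the eutopic-to-sham difference and 822 for that of the lesion-to-eutopic difference. The last was 274 without lesion libraries 1 and 2 at 3 months, and the change of the eutopic-to-sham difference gave 0 genes with all 24 libraries. The cause of these moves was not tested.

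Replicate numbers were not shown to pair samples, as same-numbered deviations of lesions and eutopic uterus correlated at 0.00343 to 0.337 at 3 months and 0.0735 to 0.191 at 1 month. Of 8 libraries, 6 at 3 months and 8 at 1 month correlated best with their own number, a hint from the data only. With the replicate block added to the fit of the compared groups alone, which without it called the numbers given above, 0 members and 608 genes were called in lesions against eutopic uterus at 3 months, 0 members and 0 genes against sham uterus, 0 members and 0 genes in lesions between times, and 6 genes for the change of the lesion-to-eutopic difference. Under the block some uncalled values changed sign: Il18 in lesions against eutopic uterus at 1 month to -0.014 (and to -0.00332 with the compared groups alone), Il6 in lesions against sham uterus at 3 months to 0.16, Il6 in sham uterus over time to -0.15, Il1r2 in lesions over time to -0.10, and Il1a in the change of the lesion-to-eutopic difference to -0.053.

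Leaving out 1 library at a time, the members called numbered 7 to 9 in lesions against eutopic uterus at 3 months, 6 to 7 in lesions against eutopic uterus at 1 month, 8 to 9 in lesions against sham uterus at 3 months, 5 to 6 in lesions against sham uterus at 1 month, 0 in eutopic against sham uterus at 3 months, 0 in eutopic against sham uterus at 1 month, 0 to 4 in lesions between times, 0 in eutopic uterus between times, 0 in sham uterus between times, 0 in the change of the eutopic-to-sham difference and 0 to 1 in the change of the lesion-to-eutopic difference. The genes called numbered 7656 to 10862 in lesions against eutopic uterus at 3 months, 2595 to 4705 in lesions against eutopic uterus at 1 month, 7841 to 10918 in lesions against sham uterus at 3 months, 1720 to 3250 in lesions against sham uterus at 1 month, 0 in eutopic against sham uterus at 3 months, 2 in eutopic against sham uterus at 1 month, 1164 to 3850 in lesions between times, 2 to 3 in eutopic uterus between times, 0 to 430 in sham uterus between times, 1 to 3 in the change of the eutopic-to-sham difference and 14 to 990 in the change of the lesion-to-eutopic difference. Uncalled values changed sign in some of these fits, with the following log2 ranges. In lesions against eutopic uterus at 1 month they were Il6 -0.38 to 0.43 and Il18 -0.15 to 0.14. In lesions against sham uterus at 3 months they were Il6 -0.62 to 0.76. In eutopic against sham uterus at 3 months they were Il6ra -0.027 to 0.25, Il18 -0.0804 to 0.17 and Il1rn -0.50 to 0.28. In eutopic against sham uterus at 1 month they were Il1b -0.38 to 0.094, Il1r2 -0.27 to 0.091 and Il33 -0.27 to 0.00028. In lesions between times they were Il1r1 -0.28 to 0.035, Il1rl1 -0.071 to 0.91 and Il1r2 -0.0076 to 1.04. In eutopic uterus between times they were Il18 -0.069 to 0.18, Il1rn -0.63 to 0.17, Il1rl1 -0.072 to 0.12, Il1r2 -0.0496 to 0.76 and Il1r1 -0.13 to 0.0082. In sham uterus between times they were Il6 -0.70 to 0.65. In the change of the eutopic-to-sham difference they were Il6 -0.18 to 1.16. In the change of the lesion-to-eutopic difference they were Il1a -0.31 to 0.79, Il1r2 -0.47 to 0.71, Il1r1 -0.23 to 0.089, Il1rl1 -0.0796 to 0.91 and Il6ra -0.065 to 0.66. Il1a rests on 1 to 14 counts per uterine library.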
